A study of Mus musculus with 6 samples.

Results

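The genes described here are 45 genes of the epidermis, the stratified outer layer of the skin, among 23183 gene symbols counted in 6 mouse tumours. They were chosen by symbol from a list of 46 names that covers keratins, proteins of the cornified layer, desmosomes and other keratinocyte genes; the entry Flg was not analysed here. The tumours were of UV2237M, a fibrosarcoma line, that is a tumour of connective tissue cells, labelled as wild type. Treated tumours 1 to 3 received gold nanoclusters (GNC) at day 1 and at day 7 with near-infrared (NIR) irradiation, and untreated tumours 1 to 3 received no treatment. The labels name neither the site at which the tumours grew nor the number of animals, so p-values measure only the spread between these samples. The list was read as a gauge of skin in each tumour sample, with 11 basal, 14 spinous and 16 cornified layer genes and 4 keratins of wounds and ducts described apart.

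In the epidermis, keratinocytes divide in the basal layer, where keratins 5 and 14 pair into filaments, and switch to keratins 1 and 10 as they move up into the spinous layer. In the granular layer above they make loricrin, involucrin and the filaggrin family, which transglutaminases cross-link into the cornified envelope, and kallikrein proteases later release the dead cells at the surface. Connective tissue cells make vimentin and collagens and are not known for these keratins.

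One promoter of each layer is shown for orientation, as the 250 bases before the gene start in RefSeq (GRCm38.p6, which is mm10), written 5′ to 3′ on the strand of the gene, with matches to the motifs searched in capitals. The RefSeq start of *Krt14* lies within its longer GENCODE gene span (chr11:100203162-100207548). The *Krt14* bases shown thus lie inside that span and not before it, and may not be the promoter of its longer transcript. The stretches shown are those of *Krt14* (chr11:100206031-100206280, strand -), *Krt10* (chr11:99389365-99389614, strand -) and *Lor* (chr3:92083143-92083392, strand -).
Krt14: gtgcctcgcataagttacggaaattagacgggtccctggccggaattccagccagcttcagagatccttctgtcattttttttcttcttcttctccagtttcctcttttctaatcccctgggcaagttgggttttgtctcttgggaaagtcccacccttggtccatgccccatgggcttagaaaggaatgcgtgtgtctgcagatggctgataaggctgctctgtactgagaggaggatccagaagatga
Krt10: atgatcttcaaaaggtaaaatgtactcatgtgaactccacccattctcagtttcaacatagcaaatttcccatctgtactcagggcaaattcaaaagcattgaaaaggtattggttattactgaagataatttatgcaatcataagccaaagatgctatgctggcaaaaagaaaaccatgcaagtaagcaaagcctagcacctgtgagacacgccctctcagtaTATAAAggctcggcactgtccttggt
Lor: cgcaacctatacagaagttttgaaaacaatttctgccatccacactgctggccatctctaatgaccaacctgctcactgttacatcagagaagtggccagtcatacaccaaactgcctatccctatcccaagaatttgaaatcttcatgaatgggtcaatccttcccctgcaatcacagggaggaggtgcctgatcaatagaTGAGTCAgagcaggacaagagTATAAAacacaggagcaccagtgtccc
The capitals mark TATAAA in *Krt10*, 26 bases before the start, and an AP-1 match and then TATAAA in *Lor*, 48 and 27 bases before the start. The AP-1 motif was searched as TGANTCA, on both strands like the others. The TATA box was searched as TATAAA and the C/EBP motif as TTGCGNA. The KLF motif was searched as GGGTGTG, and the p63 motif as 2 copies of CATG with a gap of 6 bases. None of these matches overlap each other in the promoters shown. Of the 45 genes 29 had a promoter in the RefSeq table. TGANTCA was found in 9 of them, *Lor*, *Ivl*, *Flg2*, *Sprr1a*, *Sprr1b*, *Sbsn*, *Dmkn*, *Krtdap* and *Serpinb5*, and in 6.87% of all 27025 promoters. TATAAA was found in 8, against 13% of all, TTGCGNA in 3 against 3.78%, GGGTGTG in 4 against 6.85%, and the CATG pair in 0 against 0.507%. These matches are a description of letters, not of bound sites.

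The libraries held between 4680295 and 8019294 counts. Values are CPM, the counts of a gene per 1000000 counts of its library, unless another scale is named, and the values of a group are listed in the order of tumours 1, 2 and 3. Untreated 2 stood apart from the other libraries over all genes, with a mean distance of 1.22 on the log2 CPM scale, against 0.611 to 0.729 for the others. The 15 markers of connective tissue and fibrosarcoma cells, vimentin and type I and III collagen among them, had counts in each library and summed to 29719, 37148 and 29382 CPM in treated 1, 2 and 3, against 41028, 26723 and 36844 CPM in untreated 1, 2 and 3.

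Epidermal RNA was low in all 3 treated tumours and in untreated 3, and high in untreated 1 and untreated 2. The 45 genes summed to 86.2, 50.1 and 165 CPM in treated 1, 2 and 3, against 2389, 1429.6 and 52 CPM in untreated 1, 2 and 3. The 95% Wilson intervals, which cover counting error only, were 156 to 174 CPM in treated 3, the highest of the treated libraries, against 2352 to 2426 CPM in untreated 1 and 1396 to 1464 CPM in untreated 2. Untreated 3 lay within the treated range, so the groups overlapped. Of the 45 genes, 29, 18 and 38 had at least 1 count in treated 1, 2 and 3, against 45, 45 and 16 in untreated 1, 2 and 3. Untreated 1 and untreated 2 held the highest pair of values in 43 of the 45 genes, against 12.2% of the 18217 genes with at least 1 count; the exceptions were *Sbsn* and *Tgm1*. All treated values lay below all untreated values in 1 of the 45 genes, *Cdh1*, against 8.26% of the 18217. In a bulk sample, fewer keratinocytes and less of these RNAs per keratinocyte cannot be told apart.

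**Figure D1:**
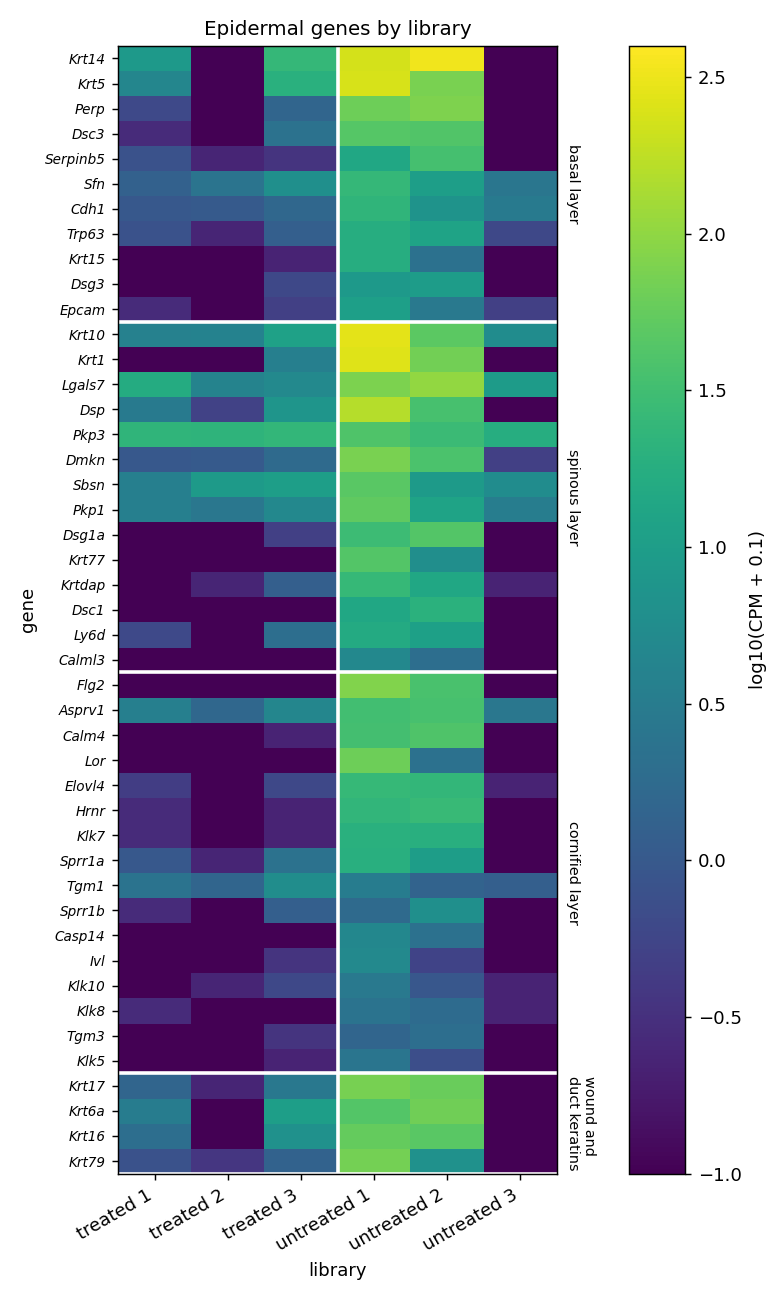
Level of each of the 45 epidermal genes (rows, grouped by layer and ordered by mean level) in each library (columns), as log10(CPM + 0.1). The columns of untreated 1 and untreated 2 are bright in each layer, treated 3 is faintly lit, and treated 2 and untreated 3 are dark except for genes such as Pkp3, Lgals7 and Krt10.

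Basal layer genes summed to 17.6, 3.57 and 57.4 CPM in treated 1, 2 and 3, against 699, 602 and 6.36 CPM in untreated 1, 2 and 3. *Krt14* (chr11:100203162-100207548, mm10, GENCODE M21), the type I keratin of basal cells, had 8.78, 0 and 24.6 CPM in treated tumours, against 234, 329 and 0 CPM in untreated tumours. Its type II partner *Krt5* (chr15:101707070-101712898) had 4.39, 0 and 19.2 CPM in treated tumours, against 239.9, 73.9 and 0 CPM in untreated tumours. Both were at 0 in treated 2 and untreated 3, and both were higher in untreated 1 and 2 than in any treated tumour. *Krt15*, a keratin of basal and hair bulge cells, had 0, 0 and 0.126 CPM in treated tumours, against 17.4, 2.14 and 0 CPM in untreated tumours, so that it was low in untreated 2 as well. *Trp63*, which codes for the p63 transcription factor that specifies stratified epithelia, had 0.702, 0.137 and 1.14 CPM in treated tumours, against 17.5, 12.2 and 0.499 CPM in untreated tumours, and its highest treated value lay an order of magnitude below untreated 1 and 2.

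Junction and cytoplasmic genes listed with the basal layer were again highest in untreated 1 and 2. *Perp*, a desmosome-associated membrane protein and p63 target, had 0.527, 0 and 1.39 CPM in treated tumours, against 63.5, 79.5 and 0 CPM in untreated tumours. *Dsc3*, a desmosomal cadherin, had 0.176, 0 and 2.15 CPM in treated tumours, against 45.1, 41.2 and 0 CPM in untreated tumours. Its partner *Dsg3* had 0, 0 and 0.505 CPM in treated tumours, against 8.84, 9.61 and 0 CPM in untreated tumours. Both cadherins were at 0 in treated 2 and untreated 3. *Serpinb5* (maspin), a serpin of epithelial cells, had 0.702, 0.137 and 0.253 CPM in treated tumours, against 13.9, 34 and 0 CPM in untreated tumours. These 4 genes were high in both untreated 1 and untreated 2 and had at most 2.15 CPM in a treated library. *Sfn* (14-3-3 sigma), a scaffold protein of keratinocytes, had 1.23, 2.33 and 6.06 CPM in treated tumours, against 25.3, 10.5 and 2.49 CPM in untreated tumours, so that treated 3 exceeded untreated 3. *Cdh1* (E-cadherin), the cadherin of epithelial adherens junctions, had 0.878, 0.961 and 1.52 CPM in treated tumours, against 22.4, 7.05 and 2.99 CPM in untreated tumours, and its groups did not overlap. *Epcam*, an epithelial adhesion molecule, had 0.176, 0 and 0.379 CPM in treated tumours, against 10.5, 2.78 and 0.374 CPM in untreated tumours.

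Spinous layer genes summed to 53.7, 43 and 71.5 CPM in treated 1, 2 and 3, against 1125, 439 and 41.5 CPM in untreated 1, 2 and 3. *Krt1* (chr15:101845426-101850794) and *Krt10* (chr11:99385254-99389364), are the keratin pair of spinous cells. *Krt1* had 0, 0 and 3.54 CPM in treated tumours, against 264, 68.2 and 0 CPM in untreated tumours. *Krt10* had 3.69, 3.84 and 11.4 CPM in treated tumours, against 280.4, 48.7 and 5.49 CPM in untreated tumours. *Krt1* was thus found in 1 treated tumour, while *Krt10* had counts in each library. Per kb of the longest transcript, *Krt10* was the highest spinous gene in untreated 1 at 134 CPM per kb, ahead of *Lgals7* at 102 and *Krt1* at 84.4 CPM per kb. *Krt77*, a type II keratin of upper epidermal cells, had 0, 0 and 0 CPM in treated tumours, against 43.9, 5.98 and 0 CPM in untreated tumours, and was at 0 in all 4 libraries other than untreated 1 and 2.

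*Dsp* (desmoplakin), which ties keratin filaments to desmosomes, had 2.81, 0.412 and 7.45 CPM in treated tumours, against 156, 35.7 and 0 CPM in untreated tumours. *Pkp1*, the plakophilin of suprabasal desmosomes, had 3.51, 2.61 and 4.67 CPM in treated tumours, against 52.4, 12 and 3.24 CPM in untreated tumours. *Dsp* was at 0 in untreated 3, while *Pkp1* kept a low level in each library. The desmosomal cadherin *Dsg1a* had 0, 0 and 0.379 CPM in treated tumours, against 29.4, 43.2 and 0 CPM in untreated tumours. *Dsc1*, a cadherin of upper layers, had 0, 0 and 0 CPM in treated tumours, against 14, 19.9 and 0 CPM in untreated tumours, so that it was at 0 in all treated libraries. *Dsg1b* is a near-identical neighbour of *Dsg1a*, with at most 3.2 CPM in a library, and the counting may have split reads between the 2, so the value of each is uncertain. *Pkp3*, a plakophilin of many epithelia, had 22.5, 22.1 and 24.1 CPM in treated tumours, against 39.9, 28.6 and 17.5 CPM in untreated tumours, and its level hardly separated the libraries.

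Secreted and cytoplasmic products of spinous cells followed. *Dmkn* (dermokine) had 0.878, 0.961 and 1.64 CPM in treated tumours, against 73.9, 37.6 and 0.374 CPM in untreated tumours. *Krtdap*, a secreted protein of differentiating keratinocytes, had 0, 0.137 and 1.14 CPM in treated tumours, against 25.4, 13.7 and 0.125 CPM in untreated tumours. *Sbsn* (suprabasin), which lies beside them on chromosome 7, had 3.51, 8.92 and 10.4 CPM in treated tumours, against 47.8, 8.97 and 5.49 CPM in untreated tumours. *Dmkn* and *Krtdap* were high in untreated 1 and 2, whereas for *Sbsn* untreated 1 stood out alone and untreated 2 lay below treated 3. *Lgals7* (galectin-7), a lectin of stratified epithelia, had 16.3, 3.98 and 4.93 CPM in treated tumours, against 76.8, 104 and 9.35 CPM in untreated tumours, with counts in each library. *Ly6d*, a surface protein of keratinocytes, had 0.527, 0 and 1.9 CPM in treated tumours, against 15.7, 10.9 and 0 CPM in untreated tumours. *Calml3*, a calmodulin-like protein, had 0, 0 and 0 CPM in treated tumours, against 4.72, 1.92 and 0 CPM in untreated tumours.

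Cornified layer genes summed to 7.72, 3.16 and 15.4 CPM in treated 1, 2 and 3, against 323, 209 and 4.12 CPM in untreated 1, 2 and 3. *Lor* (chr3:92080271-92083142), which codes for loricrin, the main protein of the cornified envelope, had 0, 0 and 0 CPM in treated tumours, against 64.4, 2.14 and 0 CPM in untreated tumours. *Flg2*, a relative of filaggrin, had 0, 0 and 0 CPM in treated tumours, against 82.7, 36.3 and 0 CPM in untreated tumours. *Hrnr* (hornerin), another, had 0.176, 0 and 0.126 CPM in treated tumours, against 23.2, 26.7 and 0 CPM in untreated tumours. *Lor* and *Flg2* were at 0 in all libraries other than untreated 1 and 2. *Calm4*, a calcium-binding protein of mouse keratinocytes, had 0, 0 and 0.126 CPM in treated tumours, against 33.5, 41 and 0 CPM in untreated tumours. *Sprr1a*, a small proline-rich envelope protein, had 0.878, 0.137 and 2.15 CPM in treated tumours, against 18.7, 9.83 and 0 CPM in untreated tumours. Its near copy *Sprr1b* had 0.176, 0 and 1.14 CPM in treated tumours, against 1.68, 6.2 and 0 CPM in untreated tumours. Alone of these 3, *Sprr1a* was lower in untreated 2 than in untreated 1, and reads may be shared between the *Sprr1* copies. *Ivl* (involucrin), an early envelope protein, had 0, 0 and 0.253 CPM in treated tumours, against 4.87, 0.427 and 0 CPM in untreated tumours.

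Enzymes of the cornified layer had the same libraries on top, with 1 exception. *Asprv1*, a protease that processes profilaggrin, had 3.51, 1.51 and 4.42 CPM in treated tumours, against 32.4, 35 and 2.62 CPM in untreated tumours. *Elovl4*, which makes the very long fatty acids of epidermal ceramides, had 0.351, 0 and 0.505 CPM in treated tumours, against 25.9, 23.7 and 0.125 CPM in untreated tumours. *Klk7*, a kallikrein that cuts desmosomes at the skin surface, had 0.176, 0 and 0.126 CPM in treated tumours, against 19, 18.6 and 0 CPM in untreated tumours. *Asprv1* kept a low level in each library, and *Elovl4* and *Klk7* were near or at 0 outside untreated 1 and 2. *Casp14*, a caspase of cornification, had 0, 0 and 0 CPM in treated tumours, against 4.57, 2.14 and 0 CPM in untreated tumours. The kallikreins *Klk5*, *Klk8* and *Klk10* had at most 0.505 CPM in a treated tumour, against 2.28 to 2.74 CPM in untreated 1, 0.641 to 1.71 CPM in untreated 2 and 0 to 0.125 CPM in untreated 3. The exception was *Tgm1*, a transglutaminase that cross-links the envelope, with 2.28, 1.37 and 5.69 CPM in treated tumours, against 3.2, 1.28 and 1.12 CPM in untreated tumours, so that treated 3 was highest. *Tgm3*, another such enzyme, had 0, 0 and 0.253 CPM in treated tumours, against 1.37, 1.92 and 0 CPM in untreated tumours.

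Keratins of wounded epidermis and of ducts summed to 7.2, 0.412 and 20.7 CPM in treated 1, 2 and 3, against 242, 179.9 and 0 CPM in untreated 1, 2 and 3. *Krt6a*, which keratinocytes switch on after injury, had 3.16, 0 and 10.2 CPM in treated tumours, against 43.7, 66.2 and 0 CPM in untreated tumours. Its partner *Krt16* had 1.93, 0 and 6.57 CPM in treated tumours, against 55.8, 47.4 and 0 CPM in untreated tumours. The *Krt6a* value was higher in untreated 2 than in untreated 1, and *Krt14*, *Krt16* and *Krt17* are alike enough in sequence that reads may be shared. *Krt17*, a keratin of wounds and hair follicles, had 1.4, 0.137 and 2.65 CPM in treated tumours, against 73.4, 59.6 and 0 CPM in untreated tumours. *Krt79*, a keratin of the hair follicle opening and sebaceous duct in mice, had 0.702, 0.274 and 1.26 CPM in treated tumours, against 69.5, 6.62 and 0 CPM in untreated tumours. Untreated 3 had no count of any of the 4, and *Krt79* was an order of magnitude lower in untreated 2 than in untreated 1, which the other 3 were not. *Krt6b*, which is nearly identical to *Krt6a* and may share its reads, had 1.05, 0 and 3.79 CPM in treated tumours, against 38.5, 128 and 0 CPM in untreated tumours.

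**Figure D2:**
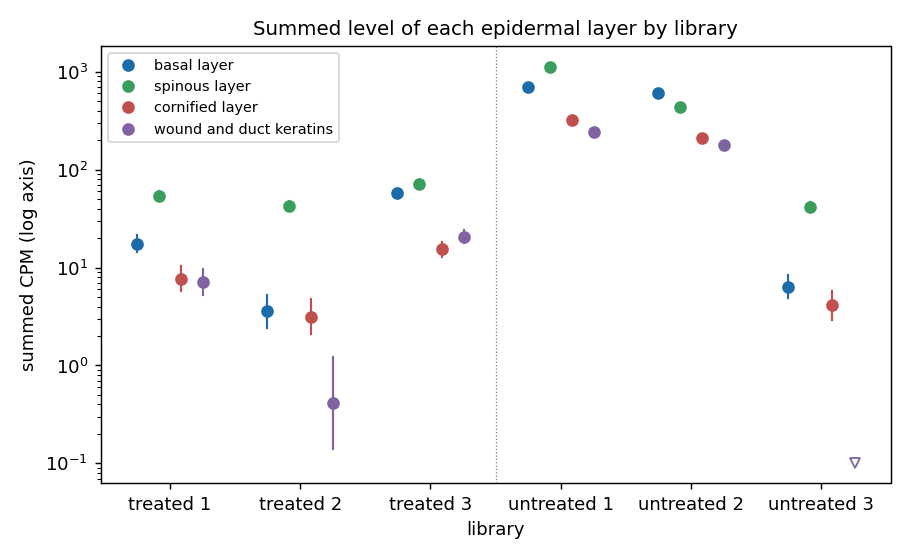
Summed CPM (log axis) of the basal, spinous and cornified layer genes and of the wound and duct keratins in each library; vertical lines are 95% Wilson intervals of the summed count and the open triangle marks a sum of 0. In each layer untreated 1 and untreated 2 lie highest and treated 3 comes next, and the spinous sum never falls below 41.5 CPM.

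The libraries differed in the shares of spinous and basal keratin counts. Of the summed counts of *Krt1*, *Krt10*, *Krt5* and *Krt14*, the spinous pair made up 21.9% (95% Wilson interval 14.8% to 31.1%, 21 of 96 counts) in treated 1 and 25.4% (95% interval 21.6% to 29.5%, 118 of 465 counts) in treated 3. The share was 53.5% (95% interval 52.3% to 54.6%, 3576 of 6690 counts) in untreated 1 and 22.5% (95% interval 20.9% to 24.2%, 547 of 2435 counts) in untreated 2. In treated 2 all 28 counts of the 4 keratins and in untreated 3 all 44 were of the spinous pair, each of them *Krt10*, since the other 3 genes were at 0. *Krt10* also gave all 21 counts of the pair in treated 1 and 90 of 118 in treated 3. Since *Krt10* kept 5.49 CPM in untreated 3 without the others, shares in treated 1 and 3 cannot be read as mixtures of layers. Among the 4 libraries with counts of *Krt5* and *Krt14*, the share in untreated 1 lay above the others by more than counting error. The wound keratins *Krt6a*, *Krt16* and *Krt17*, set against *Krt5* and *Krt14*, made up 33% (95% interval 25% to 42.2%, 37 of 112 counts) in treated 1 and 30.7% (95% interval 26.9% to 34.9%, 154 of 501 counts) in treated 3. The same share was 26.7% (95% interval 25.4% to 28.1%, 1135 of 4249 counts) in untreated 1 and 30.05% (95% interval 28.3% to 31.8%, 811 of 2699 counts) in untreated 2. Treated 2 had 1 count of these 5 genes and untreated 3 had 0, so no share is given for them. The shares of the other 4 libraries lay between 26.7% and 33%, and the intervals of untreated 1 and untreated 2 did not overlap. They leave out *Krt6b*, which may share reads with *Krt6a* and had 253 counts in untreated 1 and 598 in untreated 2. The shares thus depend on which wound keratins are taken. Per kilobase of the longest transcript, the highest levels in untreated 1 were 138 CPM per kb for *Krt14*, 134 for *Krt10* and 109 for *Krt5*, and in untreated 2 they were 194 CPM per kb for *Krt14*, 137 for *Lgals7* and 44.7 for *Calm4*.

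A low floor of some of these genes was present in each tumour. 11 genes had at least 1 count in each of the 6 libraries, namely *Pkp3*, *Lgals7*, *Sbsn*, *Krt10*, *Asprv1*, *Pkp1*, *Sfn*, *Cdh1*, *Dmkn*, *Tgm1* and *Trp63*. *Pkp3*, *Lgals7*, *Sbsn* and *Krt10* held 77.5% of the epidermal counts in treated 2 and 72.7% in untreated 3, against 18.6% in untreated 1. The other 34 genes summed to 27.2, 1.37 and 89.1 CPM in treated 1, 2 and 3, against 1717, 1124 and 0.873 CPM in untreated 1, 2 and 3. In untreated 3 this sum rested on 7 counts and in treated 2 on 10. Gene models on the other strand overlap *Krt5*, *Krt6a*, *Krt10*, *Lgals7*, *Dsp*, *Hrnr*, *Trp63*, *Tgm1*, *Tgm3*, *Klk8* and *Klk10*, and models on the same strand overlap *Sbsn*, *Pkp1*, *Calm4* and *Trp63*. The strand setting of the counting is not given in the sources used here, so such genes may share counts.

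The study set GNC with NIR irradiation against no treatment, and the epidermal genes did not part the groups beyond the spread among the untreated tumours. Summed over the 45 genes, the level was 100.4 ± 58.8 CPM in treated and 1290.1 ± 1175 CPM in untreated tumours (SD, n = 3 each), a log2 ratio of -3.68 for means whose untreated SD nearly equalled the mean. The log2 ratio of the means was -4.06 for basal, -3.25 for spinous and -4.35 for cornified layer genes and -3.90 for the wound and duct keratins. Leaving out 1 untreated library gave a log2 ratio for all 45 of -2.88 without untreated 1, -3.60 without untreated 2 and -4.25 without untreated 3. By layer, the log2 ratio without treated 3 was -5.37 for basal, -3.47 for spinous, -5.04 for cornified genes and -5.21 for the wound and duct keratins. Without untreated 1 it was -3.54 for basal, -2.10 for spinous, -3.60 for cornified genes and -3.25 for the wound and duct keratins. Without untreated 2 it was -3.75 for basal, -3.38 for spinous, -4.22 for cornified genes and -3.68 for the wound and duct keratins. Without untreated 3 it was -4.64 for basal, -3.80 for spinous, -4.92 for cornified genes and -4.48 for the wound and duct keratins. The spinous ratio was thus the least negative in each of these, and it moved most when untreated 1 was left out. The spinous sums include *Pkp3*, *Lgals7*, *Sbsn* and *Krt10*, which held 77.5% of the epidermal counts in treated 2 and 72.7% in untreated 3. The spinous ratio thus covers this low floor, whose part in it was not tested. With untreated 3 as the untreated tumour, without untreated 1 and 2, the log2 ratio was 0.95 for all 45, so its sign turned. The 6 genes at 0 in all treated libraries, *Flg2*, *Lor*, *Krt77*, *Dsc1*, *Calml3* and *Casp14*, were at least 258-fold, 157-fold, 114-fold, 66.9-fold, 14.5-fold and 14.5-fold lower in the pooled treated than in the pooled untreated libraries, with a floor of 3 counts over the 3 treated libraries. These genes were picked for being at 0 in the treated libraries, and pooling leaves out the spread between tumours. Untreated 1 and untreated 2 held 423 and 10 counts of *Lor*, but 92 and 93 of *Dsc1*. All 6 genes were at 0 in untreated 3 too, a pattern found in 0.719% of genes with a count, so no fold can be taken against that tumour.

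In edgeR's quasi-likelihood test, fitted on all genes, 0 epidermal genes were lower and 0 higher at a Benjamini-Hochberg adjusted p under 0.05, against 0% of the 12517 genes tested in either direction. The filter, which asked for about 1.44 CPM in 3 libraries, passed 20 of the 45 and left out 25, none of which reached that level in more than 2 libraries. The smallest adjusted p among the 20 was 0.592. At an unadjusted p under 0.05, 10 were lower and 0 higher, against 4.85% and 3.32% of all tested genes, and limma-voom gave 0 called genes and 2 epidermal genes lower at that p, against 3.94%. Of these 20 genes 19 had a log2 fold change below 0, *Tgm1* (0.73 ± 0.66, SE) being the other, and their median was -3.32, against -0.00103 over all tested genes. Since a gene could pass the filter through its untreated values, that median describes the genes that passed and no more. Without the filter all 45 entered, 44 of them below 0, and 36 were lower at an unadjusted p under 0.05, against 4.94% of the 18217 genes, with 0 called after adjustment. The 25 genes added here had at most 1.39 CPM in a treated library and were highest in untreated 1 and 2. Lower was thus nearly the one direction open to them. The genes also moved together with those libraries, so the 10 and the 36 are not separate evidence and lend the comparison no support.

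Among single genes *Cdh1* averaged 1.12 ± 0.347 CPM in treated and 10.8 ± 10.2 CPM in untreated tumours (SD, n = 3 each), with a log2 fold change of -3.25 ± 0.79 (SE) and an edgeR adjusted p of 0.592. *Dmkn* had a log2 fold change of -4.98 ± 1.46, *Krt10* of -4.14 ± 1.31 and *Krt1* of -6.45 ± 2.21. The structural keratins *Krt14* and *Krt5* lay at -4.11 ± 2.05 and -3.73 ± 1.96, and *Pkp3*, the gene with the smallest change below 0, at -0.34 ± 0.31. Single libraries moved several of these log2 fold changes. Without untreated 1 they were -2.15 for *Krt10*, -4.82 for *Krt1*, -2.29 for *Krt5*, -3.96 for *Krt14*, -4.05 for *Dmkn* and -2.16 for *Cdh1*. Without untreated 2 they were -4.46 for *Krt10*, -6.63 for *Krt1*, -3.88 for *Krt5*, -3.37 for *Krt14*, -4.94 for *Dmkn* and -3.45 for *Cdh1*. Without treated 3, which held most of the treated counts of the basal keratins, they were -5.61 for *Krt5*, -5.46 for *Krt14* and -4.87 for *Krt10*, and *Krt1*, then at 0 in the treated libraries, gave no fold. For all of these but *Cdh1* a treated value lay above untreated 3 or equal to it at 0. DESeq2 called *Dmkn*, *Krt10* and *Cdh1* lower, with adjusted p of 0.00741, 0.0213 and 0.0133, against 0.312% of all genes. On the same libraries edgeR and limma-voom called none of them. On the simulated counts described below, DESeq2 made 41 false calls, against 6 by edgeR. Those counts held no library like untreated 2 and no genes moving together, so they cannot grade these calls.

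The calls changed with the untreated libraries in the fit. Without untreated 3, edgeR called *Calm4*, *Dmkn*, *Hrnr* and *Klk7* lower in treated tumours at an adjusted p of 0.0291, against 0.0313% of 12766 genes, and no other gene. *Calm4*, *Hrnr* and *Klk7* had not passed the filter with all 6 libraries, and here they passed through untreated 1 and 2 alone, so that lower was the one direction open to them. DESeq2 without untreated 3, a fit chosen after seeing the data, called 30 of 41 tested epidermal genes lower and 0 higher, against 1.78% of all genes. Of those 41, 21 had not been tested with all 6 libraries, all 21 were below the filter level in each treated library and so passed through untreated 1 and 2, and 19 of the 30 calls were among them. These counts describe fits without the untreated library in which the genes were low, and lend the comparison no support. *Krt1*, *Krt5*, *Krt14*, *Krt16* and *Krt6a* were not among the 30, with adjusted p between 0.226 and 0.392. Without untreated 2, edgeR called 0 epidermal genes, and 14 of 21 were lower at an unadjusted p under 0.05, against 8.85% of all genes. The untreated tumours of that fit were untreated 1, at 2389 CPM over the 45 genes, and untreated 3, at 52 CPM. The 14 thus rest mainly on untreated 1, in which the genes were high together. They are not separate evidence and lend the comparison no support. DESeq2 without untreated 2, also chosen after seeing the data, called *Cdh1* lower at an adjusted p of 0.00204, against 1.23% of all genes. With untreated 3 as the one untreated library, edgeR called 0 epidermal genes, against 0.00756% of all genes.

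Untreated 1 and untreated 2 differed from each other in which epidermal genes were high, and GC content moved with that difference. To show the range, the first 120 coding bases of *Lor*, the epidermal gene with the highest GC content, and of *Serpinb5*, that with the lowest, are given below with G and C in capitals (GENCODE M21, mm10; *Lor* exon 2, chr3:92081858-92081977, strand -; *Serpinb5* exon 3, chr1:106870283-106870402, strand +).
Lor: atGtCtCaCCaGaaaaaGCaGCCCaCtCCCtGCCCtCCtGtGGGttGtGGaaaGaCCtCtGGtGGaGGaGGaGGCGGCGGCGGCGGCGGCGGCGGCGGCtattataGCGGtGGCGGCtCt
Serpinb5: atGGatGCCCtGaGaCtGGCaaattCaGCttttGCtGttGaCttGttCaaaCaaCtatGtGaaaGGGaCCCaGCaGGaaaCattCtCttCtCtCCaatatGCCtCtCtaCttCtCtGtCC
G and C make up 65.8% of the *Lor* stretch and 45% of the *Serpinb5* stretch, and 68.3% and 39.9% of the longest transcripts. *Lor* had 64.4 CPM in untreated 1 and 2.14 CPM in untreated 2, while *Serpinb5* had 13.9 CPM in untreated 1 and 34 CPM in untreated 2. Among the 43 genes with at least 20 counts in both libraries together, the 21 of lower GC content (median 49.1%) had a median log2 ratio of untreated 2 over untreated 1 of -0.13, and the 22 of higher GC content (median 55.7%) one of -1.08. Over all tested genes in the same GC ranges the median log2 ratio was 0.09 and -0.72, with 0.5 CPM added to each value, which was not done for the 43 genes. Across those 43 genes Pearson's r between GC content and the log2 ratio was -0.43, given as a description of 2 libraries over genes that are not independent. Genes of middling GC content spread widely. *Krt79* (50.9% GC), *Krt77* (53.5%) and *Ivl* (51.6%) had log2 ratios of -3.39, -2.87 and -3.51, while *Krt6a* (54.3%), *Krt14* (57.2%) and *Sprr1b* (51.7%) had 0.60, 0.49 and 1.89. The part of GC content in the layer shares above was not tested.

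**Figure D3:**
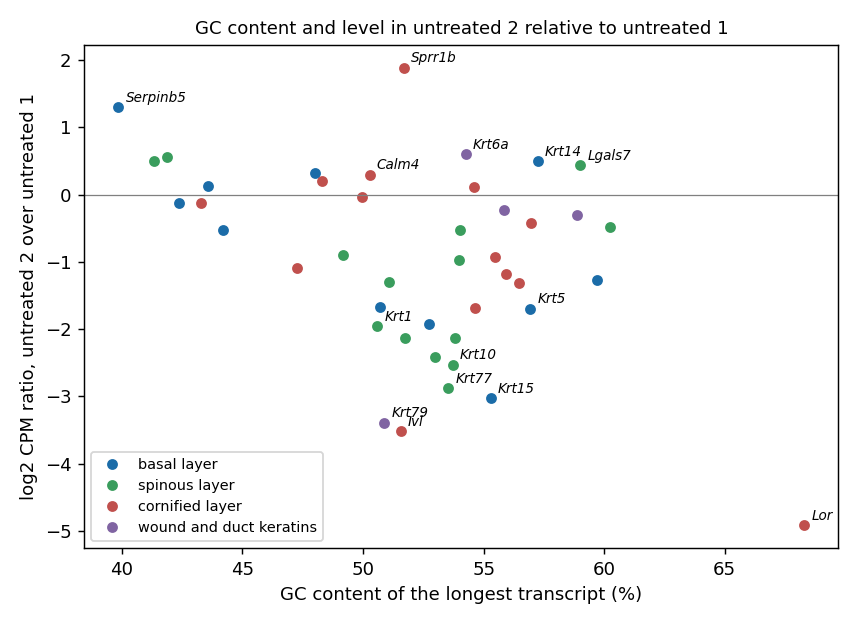
Log2 CPM ratio of untreated 2 over untreated 1 (vertical axis) against GC content of the longest transcript (horizontal axis, %) for the 43 epidermal genes with at least 20 counts in both libraries together, coloured by layer. The 7 points of lowest GC content lie between -0.52 for Trp63 and 1.29 for Serpinb5, Lor lies lowest at -4.91, and the neighbours Ivl and Sprr1b differ widely, at -3.51 and 1.89.

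Other epidermal genes, taken from lists of the same biology, followed the same libraries. The 48 further genes of the cornified envelope summed to 14, 16.1 and 27.9 CPM in treated 1, 2 and 3, against 228, 101 and 13.5 CPM in untreated 1, 2 and 3. Of these, 6 of 48 were tested, 5 with a log2 fold change below 0 and 1 above, and 0 were called by edgeR, with 1 lower and 0 higher at an unadjusted p under 0.05. Within them the 19 late cornified envelope (*Lce*) genes summed to 0.527, 0.137 and 1.64 CPM in treated 1, 2 and 3, against 53.6, 41.7 and 0 CPM in untreated 1, 2 and 3. *Cst6*, a cystatin that inhibits cornification proteases, had 0.702, 0.823 and 1.77 CPM in treated tumours, against 43.3, 6.2 and 0.499 CPM in untreated tumours. *Ppl* (periplakin), an envelope scaffold, had 4.92, 5.9 and 6.57 CPM in treated tumours, against 30.6, 8.12 and 4.99 CPM in untreated tumours, so that untreated 1 stood out for both. The 20 other epidermal proteases and inhibitors summed to 1.76, 2.74 and 4.04 CPM in treated 1, 2 and 3, against 53.5, 47 and 1.5 CPM in untreated 1, 2 and 3, and 0 passed the filter. *Spink5*, the inhibitor of the kallikreins, had 0, 0 and 0.253 CPM in treated tumours, against 16, 16.9 and 0 CPM in untreated tumours. *Gsdmc*, a gasdermin, had 0.176, 0 and 0.379 CPM in treated tumours, against 5.94, 4.91 and 0 CPM in untreated tumours. In all of these sums untreated 1 and 2 were the highest pair and untreated 3 was the lowest library.

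In lists whose genes other cells share, the sums differed less between libraries. The genes of epithelial junctions and their basement membrane attachment summed to 237, 261 and 239 CPM in treated 1, 2 and 3, against 424, 217 and 258 CPM in untreated 1, 2 and 3. Of these, 15 of 25 were tested, 10 with a log2 fold change below 0 and 5 above, and 0 were called by edgeR, with 4 lower and 1 higher at an unadjusted p under 0.05. *Lamb3*, a laminin chain of the epidermal basement membrane, had 10.7, 10.6 and 6.19 CPM in treated tumours, against 25.1, 25.6 and 17.8 CPM in untreated tumours. The groups did not overlap, with *Lamb3* lower in treated tumours, and the edgeR adjusted p was 0.592. *Itgb4*, an integrin of hemidesmosomes, had 80.4, 102 and 66 CPM in treated tumours, against 171, 23.3 and 124 CPM in untreated tumours. Of the transcription and splicing factors of epidermis, 9 of 25 were tested, 3 with a log2 fold change below 0 and 6 above, and 0 were called by edgeR, with 2 lower and 0 higher at an unadjusted p under 0.05. *Cebpa* had 5.97, 15.6 and 11.7 CPM in treated tumours, against 20.7, 40.4 and 15.3 CPM in untreated tumours. *Cebpb* had 69.7, 50.5 and 87.4 CPM in treated tumours, against 29.6, 43.2 and 61 CPM in untreated tumours. *Cebpa* was highest in untreated 2, with untreated 3 just below treated 2, and *Cebpb* was lowest in untreated 1. *Tfap2a*, a factor of ectoderm, had 53, 38.6 and 43.6 CPM in treated tumours, against 58.2, 4.91 and 43.1 CPM in untreated tumours, and untreated 2 was its lowest library. Of the genes of the epidermal lipid barrier, 6 of 20 were tested, 5 with a log2 fold change below 0 and 1 above, and 0 were called by edgeR, with 0 lower and 0 higher at an unadjusted p under 0.05. In this list *Ugcg*, *Abhd5* and *Smpd1*, which many cells use, had at least 13.3 CPM in each library.

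Markers of other structures of the skin and of its surroundings were set beside the epidermal sums. Hair shaft and root sheath keratins were close to 0 in all tumours, with 1, 0 and 2 counts in treated 1, 2 and 3, against 7, 1 and 0 in untreated 1, 2 and 3 over 20 genes. The whole list of 34 hair follicle genes had 9, 9 and 12 genes with a count in treated 1, 2 and 3, against 15, 7 and 9 in untreated 1, 2 and 3, and its sum came mostly from *Cux1*, a factor of many cells (61.1 to 236 CPM). The 15 sebaceous gland genes summed to 433, 368 and 435 CPM in treated 1, 2 and 3, against 489, 338 and 331 CPM in untreated 1, 2 and 3, led by *Scd1* and *Soat1*, which other cells also express. The 10 melanocyte genes summed to between 16.5 and 26 CPM in a library. *Mitf* gave most of each sum, with 15.1 to 23.7 CPM, and *Tyr* had 0.427 to 1.22 CPM. *Dct*, *Tyrp1* and *Pmel* of this list had at most 1.37 CPM in a library, and *Cd207*, the marker of Langerhans cells, at most 1.28 CPM. Adipocyte genes summed to 22.3, 26.2 and 48.6 CPM in treated 1, 2 and 3, against 39.8, 39.95 and 35.9 CPM in untreated 1, 2 and 3, and *Adipoq*, their defining hormone, had at most 1.71 CPM. The 10 skeletal muscle genes summed to 28.6, 10.4 and 486 CPM in treated 1, 2 and 3, against 117, 43.2 and 29.9 CPM in untreated 1, 2 and 3, so that muscle RNA was highest in treated 3, which also had the highest epidermal sum of the treated libraries. Of these 10, of which *Acta1* and *Myh4* held the most counts, 9 were tested and 9 had a log2 fold change above 0, *Mylpf* and *Atp2a1* with the smallest p, and edgeR called 0, with 0 at an unadjusted p under 0.05. Their part in the epidermal result was not tested. *Krt8*, a keratin of simple epithelia and of some transformed cells, had 1078, 839 and 1038 CPM in treated tumours, against 517, 1198 and 648 CPM in untreated tumours, and did not follow the epidermal keratins.

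**Figure D4:**
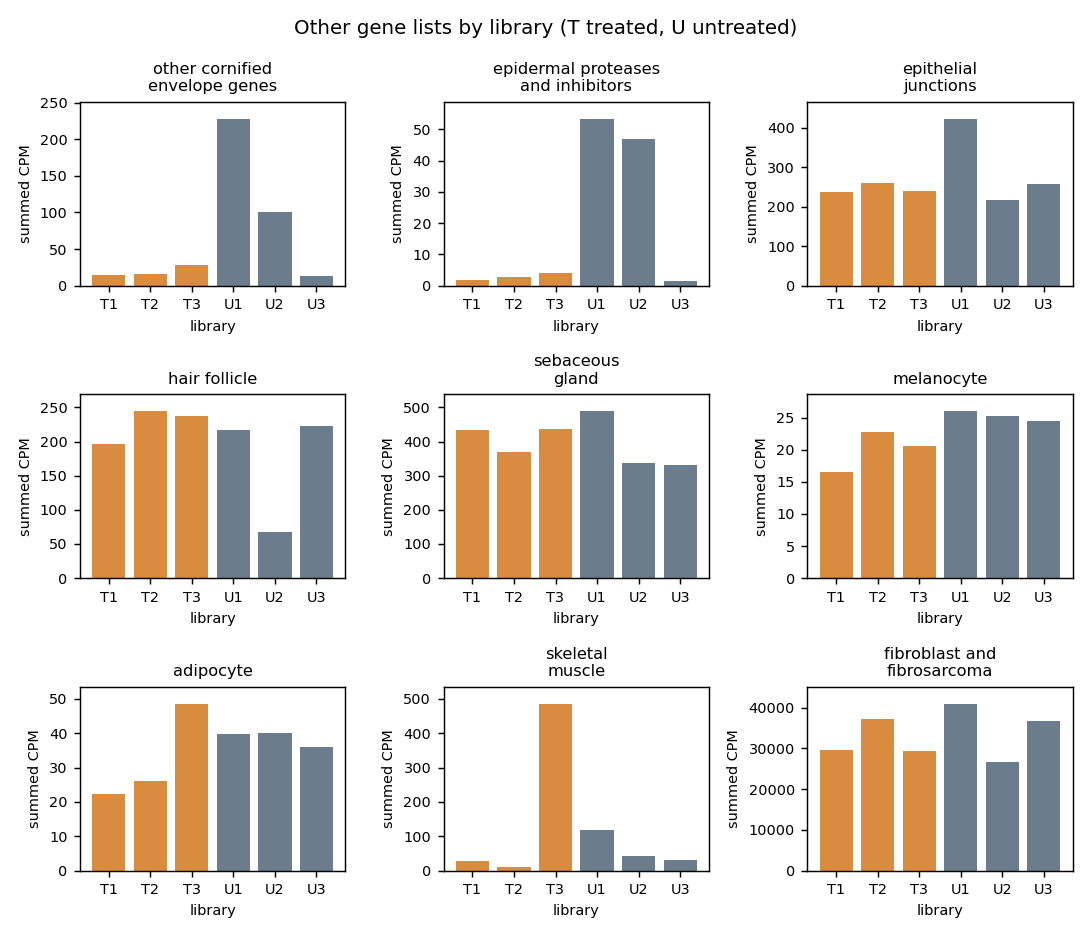
Summed CPM of 9 gene lists in treated (T1 to T3, orange) and untreated (U1 to U3, grey) libraries, each panel with its own axis from 0. The other cornified envelope genes and the epidermal proteases stand out in U1 and U2, skeletal muscle genes in T3, and the fibroblast and fibrosarcoma list is at 26723 CPM or more in each library.

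Among 12089 named genes outside all lists with a mean of at least 1 CPM, the 10 whose log2(CPM + 0.5) followed most closely the mean of the 20 tested epidermal genes over the 6 libraries were taken by Pearson's r, used for ranking alone since 2 libraries set it. They were *Fgfbp1*, *Ckmt1*, *Aqp3*, *Lypd3*, *Fat2*, *Rnd2*, *Urah*, *Pou2f3*, *Sowahc* and *Sh3rf2*. *Aqp3*, the water and glycerol channel of basal keratinocytes, had 0.527, 0.137 and 1.26 CPM in treated tumours, against 12.3, 14.1 and 0.125 CPM in untreated tumours. *Fat2*, an atypical cadherin, had 0.176, 0 and 0.632 CPM in treated tumours, against 14.6, 4.27 and 0 CPM in untreated tumours. *Fgfbp1*, which binds fibroblast growth factors, had 0.176, 0 and 0.379 CPM in treated tumours, against 4.72, 2.99 and 0 CPM in untreated tumours. Those 3 were near 0 outside untreated 1 and 2, as were *Lypd3*, *Ckmt1* and *Pou2f3*, whose highest treated values were 0.632, 0.505 and 0.505 CPM. *Sowahc* and *Rnd2* kept a level in each library, with 13.3, 12.4 and 14.3 CPM in treated tumours, against 17.2, 17.3 and 11.3 CPM in untreated tumours for *Sowahc*.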

How the data were processed

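RNA of 6 tumours was sequenced from libraries made, per the labels, with Trizol extraction and a kit that keeps the strand. Each library has a deposited table of raw counts, whole numbers with 1 row for a gene symbol. The submitters' processing notes name TopHat and the mouse build mm10 for the authors' alignment. Which program counted the reads, with what annotation and strand setting, is not given in the sources used here. CPM were computed from these counts over the deposited library totals.

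Groups were compared with edgeR 4.0.16 (R 4.3.3), filterByExpr at a smallest count of 10, TMM scaling and the 2-sided quasi-likelihood test. Its p-values were adjusted by Benjamini-Hochberg across all 12517 genes that passed. The SE is the size of the log2 fold change over the root of F. Alternatives used DESeq2 1.42.0 and limma 3.58.1. On simulated counts for 12517 genes in treated over untreated, edgeR recovered 57 of 100 genes changed 4-fold and 96 of 100 changed 16-fold, with 6 false calls. DESeq2 recovered 80 and 98, with 41 false calls. The simulated counts were drawn independently for each gene and library. They held no library apart like untreated 2 and no genes moving together, so these recoveries cannot be carried over to the epidermal genes. Libraries of a group differed by more than sampling noise (chi-square per gene 10.1 or more).

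The genes, lists and layers were chosen with earlier results of these data known. The rule names all members, gives values per library for up to 5 per layer by mean CPM and for each gene that an alternative calls, and takes from each other list the 2 highest by mean CPM and the 2 with the smallest p, of which the skin and muscle markers are named in part and some results are not reported here. Genes named outside that rule (*Krt6b*, *Dsg1b*, *Dct*, *Tyrp1*, *Pmel*, *Cd207*, *Adipoq*) were chosen after their values were seen. GC content and length are of the longest transcript in GENCODE M21, and promoters are of RefSeq.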

Additional observations from a re-analysis of the deposited data

How the results depend on the processing

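The count of epidermal genes called by edgeR was 0 with all libraries and stayed at 0 with DESeq2 size factors, the upper quartile, limma-voom, no filter and a filter at a mean of 5 CPM; over all genes these also called 0. DESeq2 called 3 epidermal genes of 57, and, chosen after seeing the data, 1 of 273 without untreated 2 and 30 of 355 without untreated 3. Leaving out 1 library gave 0 to 4 epidermal genes and 0 to 4 genes in all, those 4 without untreated 3. The replicate numbers did not pair the samples (correlation of same-numbered deviations -0.18, -0.11 and 0.11); with the replicate block edgeR called 0 epidermal genes and 0 in all.

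Without both untreated 1 and untreated 2, chosen after seeing the data and with untreated 3 assumed to vary like the treated libraries, edgeR called 1 gene, no epidermal one, and the log2 ratios of summed CPM turned to 0.95 for all 45 genes, 2.04 for basal, 0.43 for spinous and 1.09 for cornified layer genes; the wound keratins were at 0 in untreated 3 and gave no value. The log2 fold changes of *Asprv1* (0.27), *Dmkn* (1.61), *Krt10* (0.22), *Pkp1* (0.16), *Pkp3* (0.40), *Sbsn* (0.49), *Sfn* (0.39) were then above 0, and for 10 tested genes at 0 in untreated 3 no fold was taken. Leaving out 1 library gave log2 ratios for all 45 genes of -4.25 to -2.88. *Tgm1* changed sign to -0.039 without treated 3 and *Sbsn* to 0.044 without untreated 1, within ranges over the fits without 1 library of -0.04 to 1.34 and -1.91 to 0.04. TMM or DESeq2 library sizes, and leaving out the most abundant gene, kept each layer's log2 ratio within its spread. The cause of these changes was not tested. Depth limits the low end: 3 counts correspond to 0.374 to 0.641 CPM in a library.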
